A study of Mus musculus with 6 samples.

Results

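The proteasome genes of mouse osteoblast cultures were compared between verapamil and control. Members were taken by gene symbol, as the letters Psm followed by a letter from a to g, a number and any trailing letters, which gave 50 of the 17491 genes listed. They comprised 14 genes of the constitutive core, 3 of the immunoproteasome, 17 of the regulatory particle, 6 activators or inhibitors, 7 assembly chaperones and 2 tissue-specific core genes. The remaining match, Psmc3ip, encodes a partner of the meiotic recombination machinery and is not a proteasome part despite its symbol. A total of 49 members had enough reads to be tested, and the lowest level of a tested member in any library was 1.71 CPM. Psmb11 was not tested.

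The RNA-seq libraries had been made from osteoblasts treated with verapamil (3 libraries) and from untreated control osteoblasts (3 libraries), all at day 7. In both groups the cells were derived from wildtype mesenchymal stem cells of tibial and femoral marrow and were grown in a medium for bone differentiation that held ascorbic acid, β-glycerophosphate and dexamethasone. Verapamil blocks L-type voltage-gated calcium channels. Its dose, the length of exposure and the strain, age and sex of the mice were not stated in the sources, nor whether replicates came from separate cultures. The p-values therefore reflect the scatter among these 6 libraries, part of which may be technical. The series speaks of 3 pairs without saying what a pair shares, and the main test treats the libraries as unpaired.

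The proteasome is the barrel-shaped protease that degrades proteins tagged with ubiquitin. Its core is a stack of rings, with α subunits outside as a gate and β subunits inside, a few of which carry the catalytic sites. A regulatory particle made of a base and a lid caps the core, binds ubiquitin, removes it and unfolds the substrate with a ring of ATPases. Interferon and immune cell identity bring in the immunoproteasome, in which inducible β subunits take the catalytic places and peptides for MHC class I are made. In osteoblasts the proteasome is known for its turnover of the lineage regulator Runx2 and of β-catenin.

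Estimated counts summed to between 18227790 and 21662360 in the verapamil libraries and to between 20069780 and 21705960 in the control libraries. Levels are estimated counts scaled to library size with TMM factors (CPM). A change is a log2 fold change, verapamil over control, given with its standard error (SE). Adjusted p-values come from the quasi-likelihood test of edgeR, adjusted by Benjamini-Hochberg over all tested genes, and a gene passed at an adjusted p under 0.05. Each pair of replicates was further apart than counting error allows, by a chi-square per degree of freedom of 3.57 to 6.21 for verapamil pairs and 12.6 to 49.9 for control pairs, so the control libraries were the less alike. Among cell type markers, 12 of 15 osteoblast genes were lower with verapamil (80%, against 16.3% of all tested genes). Of 19 tested macrophage genes, 14 were higher (73.7%, against 15.4% of all tested genes) and 1 lower. Of 10 neutrophil genes listed, 5 had a row and 2 were tested, Mmp8 and S100a8, and both were higher. S100a8 was at only 0.28 to 1.12 CPM (adjusted p = 0.0488), and 1 of the list was higher by DESeq2. Camp, Elane and Ltf were at 0.53 CPM or below and were not tested. Among tested genes of other lists, 2 of 4 adipocyte genes were higher with 1 lower. Of 6 endothelial genes, 1 was higher and 2 lower, and of 3 osteoclast genes 1 was lower. The osteoblast list summed to 27338 to 27457 CPM in the verapamil libraries and 45037 to 57376 CPM in the control libraries, and the macrophage list to 19140 to 21594 CPM in verapamil and 10582 to 13227 CPM in control. A few abundant genes weigh most in these sums. Lyz2 alone averaged 11192 CPM with verapamil and 5533 CPM in control. Col1a1, Col1a2, Ibsp and Spp1 made up most of the osteoblast sum, and Spp1 averaged 11646 CPM with verapamil and 9781 CPM in control (not past the test). These are bulk cultures, in which fewer cells of a type and less RNA per cell cannot be told apart, and the part of this shift in the results on proteasome genes was not tested.

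The proteasome genes were higher with verapamil by a small margin, or did not pass the test. Of 49 tested members, 25 rose (51.0%) and 0 fell, where 15.4% of all 13366 tested genes rose and 16.3% fell. The median SE was 0.06 over the members and 0.09 over all tested genes, so a change of the same size passed more readily among members. Without counting the direction, 31.7% of all genes passed. The count of 0 members that fell was also 0 by DESeq2 and by limma-voom, and 30 members had an unadjusted p under 0.05, as did 5803 of the 13366 genes. The log2 fold change was above 0 in 46 members and below 0 in 3, and above 0 in 6849 of the 13366 genes. Its median was 0.20 over the tested members and 0.01 over all tested genes, and it ranged from -0.22 to 0.50. In 36 members all verapamil libraries lay above all control libraries (25.2% of all genes did), and in 1 member, Psma8, they lay below (24.4% of all genes did). Summed over the 50 members, proteasome transcripts made up 4281, 4318 and 4426 CPM in verapamil replicates 1, 2 and 3, against 3798, 3756 and 3718 CPM in control replicates 1, 2 and 3. The groups did not overlap, and the mean of the summed level was 1.16 times as high with verapamil. The number of members that rose was 16 without verapamil replicate 1, 15 without verapamil replicate 2 and 16 without verapamil replicate 3. It was 19, 29 and 22 without control replicates 1, 2 and 3, and 16 with the replicate number as a block. The number of all genes that rose also changed in these fits, as given in the closing section.

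**Figure D1:**
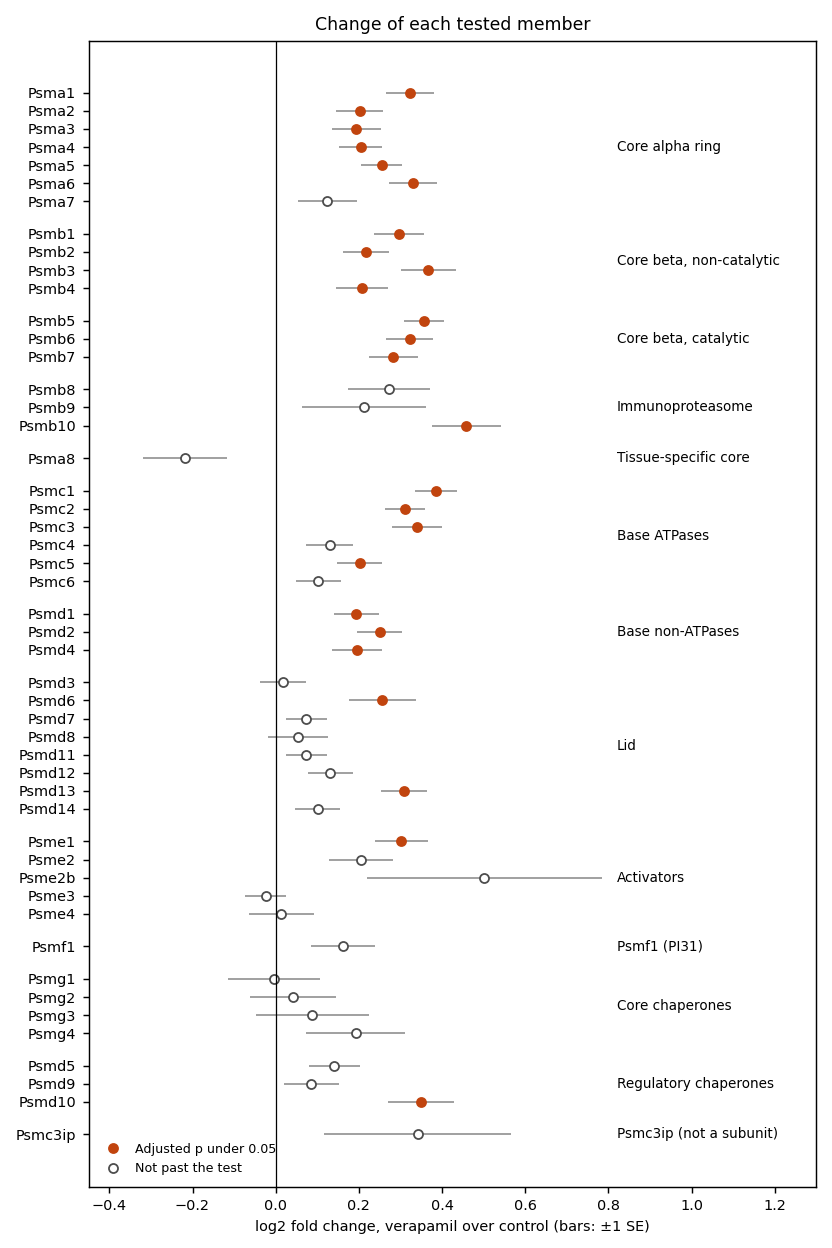
Log2 fold change of verapamil over control for the 49 tested members, grouped by role (points; bars are 1 SE of the quasi-likelihood test, n = 3 libraries a group). Filled points passed at an adjusted p under 0.05. All 25 of them lie above 0, and 13 of them belong to the constitutive core.

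These sequences near gene starts are shown because they hold the core of the antioxidant response element, the site read by Nfe2l1, a transcription factor known for inducing proteasome genes, and by its relative Nfe2l2. RefSeq windows of GRCm38.p6 were matched for 42 members, and the 250 bases before each start were searched on both strands for TGACNNNGC, in which N is any base. Each line gives 30 bases, 5′ to 3′ on the strand of the gene, with the match in capitals. A match on the opposite strand appears as its reverse complement.
Psmb5 (chr14:54618023-54618052, minus strand, change 0.36, rose): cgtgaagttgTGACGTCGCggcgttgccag
Psmb6 (chr11:70525327-70525356, plus strand, change 0.32, rose): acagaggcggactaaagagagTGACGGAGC
Psmc6 (chr14:45329587-45329616, plus strand, change 0.10, not past the test): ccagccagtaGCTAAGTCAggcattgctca
Psmd12 (chr11:107479278-107479307, plus strand, change 0.13, not past the test): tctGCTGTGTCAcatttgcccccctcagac
Psmd9 (chr5:123228149-123228178, plus strand, change 0.09, not past the test): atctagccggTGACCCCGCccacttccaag

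The match began 47 bases before the start of the window table in Psmb5, 9 in Psmb6, 31 in Psmd9, 227 in Psmc6 and 247 in Psmd12. That start lay over 10 bases inside the annotated gene in 8 members (Psma3, Psma4, Psma6, Psmb6, Psmc2, Psmd2, Psme2 and Psmf1). In Psmb6 it lay 33 bases inside, so its match begins 24 bases after the 5′ end of the gene and is upstream only of the later start. It was present in 5 of 42 members (11.9%) and in 11.5% of the 27025 genes with a window, so the members held it about as often as genes at large. Of the 5 with a match, 2 rose, and of the 37 without one, 19 rose. The interferon-stimulated response element core, written GAAA, then any 2 bases, then GAAA, and read by interferon regulatory factors, was found in 3 members (Psmb3, Psmd4 and Psmd9; 7.14%, against 3.46% of all genes), and these letters were not in the windows of Psmb8, Psmb9 or Psmb10. The letters CCAAT, the box bound by NF-Y, were in 15 members (35.7%, against 37.5% of all genes). Matches to different motifs did not overlap in any member, and a match is a description of letters only.

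Constitutive core genes were higher almost throughout. Of the 14, 13 rose (92.9%, against 15.4% of all tested genes), with a median change of 0.27. In those 13 all verapamil libraries lay above all control libraries (25.2% of all tested genes did). Their summed level was 1378, 1421 and 1474 CPM in the verapamil libraries and 1218, 1179 and 1170 CPM in the control libraries. The count that rose was 8 without verapamil replicate 2 and 8 without verapamil replicate 3.

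The catalytic subunits rose together. Psmb5, the chymotrypsin-like site (Entrez 19173, chromosome 14, 54614120 to 54617995 in GRCm38), was at 106, 107 and 108 CPM in verapamil libraries and at 83.8, 82.4 and 84.1 CPM in control libraries. These groups stood well apart and varied little within themselves (106.8 ± 1.12 CPM with verapamil and 83.4 ± 0.894 CPM in control, SD, n = 3 each). The log2 fold change was 0.36 ± 0.05 SE (adjusted p = 0.00133). Psmb6, the caspase-like site, had 79.1, 80.0 and 86.1 CPM with verapamil, against 65.3, 66.7 and 64.2 CPM in control (0.32 ± 0.06 SE, adjusted p = 0.00429). Psmb7, the trypsin-like site, had 126, 129 and 128 CPM with verapamil, against 112, 101 and 101 CPM in control (0.28 ± 0.06 SE, adjusted p = 0.00877). None of the catalytic genes overlapped between groups, and all 3 passed without each library in turn.

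The other β subunits, which complete the inner rings without a catalytic site, also rose, 4 of 4 (100%, against 15.4% of all tested genes). Psmb3 changed most, at 79.4, 81.9 and 86.7 CPM with verapamil and 66.0, 59.4 and 66.9 CPM in control (0.37 ± 0.07 SE, adjusted p = 0.00473). Psmb1 rose by 0.30, Psmb2 by 0.22 and Psmb4 by 0.21. Psmb2 and Psmb4 did not pass in every repeat with a library left out (adjusted p up to 0.0869 and 0.146), and the count of the 4 that rose was 2 without verapamil replicate 2, verapamil replicate 3 or control replicate 1.

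In the α ring, the gate of the core, 6 of 7 genes rose (85.7%, against 15.4% of all tested genes). Psma6 was at 103, 108 and 114 CPM in verapamil libraries and at 88.9, 85.8 and 84.3 CPM in control libraries (0.33 ± 0.06 SE, adjusted p = 0.00398). Psma1 rose by 0.32, Psma5 by 0.25, Psma4 by 0.20, Psma2 by 0.20 and Psma3 by 0.19. Psma2, Psma3 and Psma4 each lost the call in at least 3 of the 6 repeats that left out a library (adjusted p up to 0.114, 0.122 and 0.0867), and the number of α genes that rose was 3 without verapamil replicate 2 or 3. The member not past the test was Psma7, at 79.0, 78.4 and 89.5 CPM with verapamil and 78.8, 76.3 and 71.5 CPM in control (0.12 ± 0.07 SE, adjusted p = 0.214). Its groups overlapped through verapamil replicate 2 and control replicate 1, and without verapamil replicate 3 its change was 0.06.

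Psma8 and Psmb11 encode the core subunits of spermatogenic cells and of the thymic cortex. Psma8, the relative of Psma7, was at 7.55, 7.30 and 6.91 CPM in verapamil libraries and at 8.87, 7.85 and 8.54 CPM in control libraries. It was the one tested core-type gene with a negative change, which did not pass (-0.22 ± 0.10 SE, adjusted p = 0.135). Psmb11 had estimated counts of 2.04, 4.49 and 3.09 in verapamil libraries and 0.31, 4.28 and 7.69 in control libraries, too few to test.

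**Figure D2:**
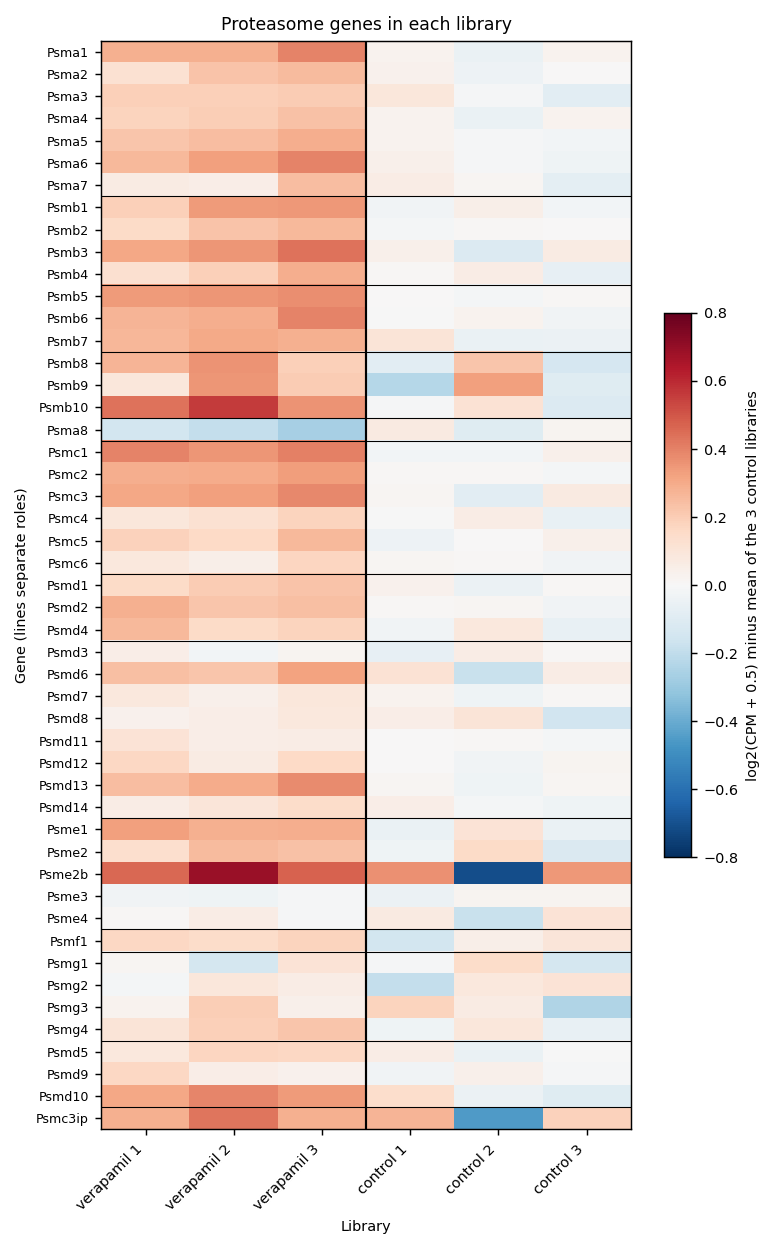
Level of each tested member in each library, as log2(CPM + 0.5) minus the mean of the 3 control libraries, verapamil libraries left and control libraries right, with lines between roles. Constitutive core genes apart from Psma7, and base genes, are redder in all 3 verapamil libraries. Psmb8, Psmb9 and Psme2 are also red in control replicate 2, and Psme2b and Psmc3ip are bluest there.

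The immunoproteasome genes were higher with verapamil in the fitted mean, but only Psmb10 passed the test. Psmb10, which takes the place of Psmb7 (Entrez 19171, chromosome 8, 105935728 to 105938392), was at 36.1, 39.3 and 34.2 CPM with verapamil and at 26.4, 28.9 and 24.6 CPM in control. Its groups did not overlap, and its change of 0.46 ± 0.08 SE (adjusted p = 0.00479) was the largest of any member that passed. Psmb8, which takes the place of Psmb5, was at 55.2, 58.8 and 52.3 CPM with verapamil and 43.0, 53.3 and 41.6 CPM in control (0.27 ± 0.10 SE, adjusted p = 0.0671). Psmb9, which takes the place of Psmb6, was at 15.6, 18.8 and 16.9 CPM with verapamil and 12.4, 18.5 and 13.6 CPM in control (0.21 ± 0.15 SE, adjusted p = 0.314). In both genes control replicate 2 reached into the range of the verapamil libraries, and it was the highest control for all 3 immunoproteasome genes. Without control replicate 2 the changes were 0.38 for Psmb8 (adjusted p = 0.00121) and 0.39 for Psmb9 (adjusted p = 0.0125), so that 3 of 3 passed, whereas in the other 5 repeats with a library left out neither passed (adjusted p = 0.0984 to 0.214 for Psmb8 and 0.310 to 0.676 for Psmb9). Scaled by library totals without TMM factors, Psmb8 passed as well (0.36, adjusted p = 0.0153), as it did with the replicate number as a block (0.28, adjusted p = 0.0456). The macrophage list, summed, was lowest in control replicate 2, at 10582 CPM. Lyz2 was at 4358 CPM there, against 5916 and 6326 CPM in control replicates 1 and 3. For C1qa, C1qb, Csf1r and Spi1 the lowest control was replicate 1, and for Adgre1, Cd68 and Msr1 it was replicate 2. The interferon response list was highest among controls in control replicate 2, at 1121 CPM. It was higher still in verapamil replicate 2, at 1492 CPM, against 1046 and 952 CPM in verapamil replicates 1 and 3. All 3 immunoproteasome genes were also highest in verapamil replicate 2. The part of these lists in the levels of Psmb8 and Psmb9 was not tested. Lymphocyte markers, cells rich in immunoproteasome, summed to 1.08 to 1.53 CPM in verapamil libraries and 0.643 to 0.748 CPM in control libraries, and Ms4a1 and Nkg7 were at 0 in 5 of the 6 libraries.

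**Figure D3:**
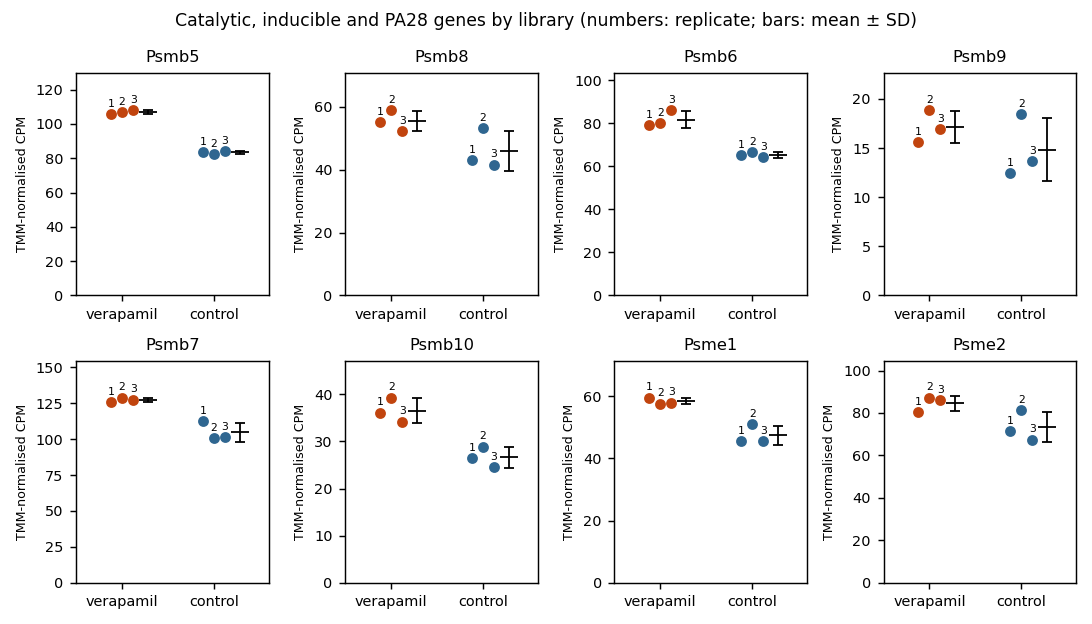
TMM-normalised CPM in each library of the constitutive catalytic genes, the inducible genes that take their places, and Psme1 and Psme2 (points, numbered by replicate; bars are mean ± SD, n = 3 a group). Psmb5, Psmb6 and Psmb7 have tight, separate groups, whereas control replicate 2 lies near or within the verapamil range for Psmb8, Psmb9 and Psme2.

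Ratios of inducible to constitutive genes within a library do not depend on library scaling. The log2 ratio of estimated counts of Psmb8 over Psmb5 was -0.94, -0.86 and -1.05 in verapamil libraries and -0.96, -0.63 and -1.02 in control libraries, a difference of -0.08. That of Psmb9 over Psmb6 was -2.34, -2.08 and -2.35 with verapamil and -2.39, -1.85 and -2.23 in control, a difference of -0.10. Both ratios overlapped between the groups and differed by less than the SD among the controls (0.21 and 0.28). Without control replicate 2 the differences were 0.04 and 0.06. For Psmb10 over Psmb7 the ratio was -1.80, -1.71 and -1.90 with verapamil and -2.09, -1.80 and -2.04 in control, a difference of 0.17. Control replicate 2 lay above verapamil replicate 3, so these groups overlapped too. These ratios are given as values, and no test of them was run.

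In the regulatory particle, a larger share of base genes than of lid genes rose. In the base, 4 of 6 ATPases and 3 of 3 other subunits rose (66.7% and 100%, against 15.4% of all tested genes). Their median changes were 0.26 and 0.20. In the lid, 2 of 8 rose (25%, against the same 15.4%), with a median of 0.09. All 8 lid changes were above 0 with all libraries. Psmd3 fell below 0 without verapamil replicate 1 or control replicate 1, and Psmd8 without control replicate 3. The difference between base and lid was not tested. Without verapamil replicates 1, 2 or 3 the count of the 17 regulatory genes that rose was 4, 5 and 5, against 9 with all libraries, and without control replicate 1 it was 6.

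Among the ATPases, which pull the substrate into the core, Psmc1 had the largest change (Entrez 19179, chromosome 12, 100110202 to 100123364). It was at 199, 194 and 201 CPM with verapamil and at 149, 149 and 156 CPM in control, far apart relative to the spread in either group (0.39 ± 0.05 SE, adjusted p = 0.00130). Psmc3 had 186, 189 and 196 CPM with verapamil, against 152, 142 and 158 CPM in control (0.34 ± 0.06 SE, adjusted p = 0.00419). Psmc2 had 112, 112 and 115 CPM with verapamil, against 91.6, 91.7 and 90.0 CPM in control (0.31 ± 0.05 SE, adjusted p = 0.00249). These 3 passed without each library in turn. Psmc5 rose by 0.20 and passed in 2 of 6 repeats with a library left out (adjusted p up to 0.106 in the others). Psmc4 (0.13, adjusted p = 0.113) and Psmc6 (0.10, adjusted p = 0.182) did not pass, and their groups did not overlap.

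The other base genes encode the scaffolds Psmd1 and Psmd2, on which ubiquitin receptors dock, and the ubiquitin receptor Psmd4. Psmd2, the most abundant member in CPM, was at 345, 332 and 335 CPM in verapamil libraries and at 286, 287 and 278 CPM in control libraries (0.25 ± 0.05 SE, adjusted p = 0.0101), and was at adjusted p = 0.0636 without verapamil replicate 1. Psmd1 rose by 0.19 and Psmd4 by 0.20. In repeats that left out a library, Psmd1 passed in 2 of 6 and Psmd4 in 1 of 6, and Psmd4 did not pass by DESeq2. Of these 3 genes 0 passed without verapamil replicate 1, and 1 passed without verapamil replicate 2, verapamil replicate 3 or control replicate 1.

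In the lid, Psmd13 rose, at 85.3, 88.2 and 93.4 CPM with verapamil and 72.6, 70.2 and 72.7 CPM in control (0.31 ± 0.06 SE, adjusted p = 0.00473). Psmd6 rose too, at 90.3, 89.5 and 95.5 CPM with verapamil and 83.1, 67.4 and 79.8 CPM in control (0.26 ± 0.08 SE, adjusted p = 0.0416), and control replicate 2 was its lowest library. The call of Psmd6 was lost without verapamil replicate 1, 2 or 3 (adjusted p up to 0.147), which left 1 of 8 lid genes. Psmd14, the enzyme that cuts ubiquitin from the substrate, was at 76.7, 78.9 and 81.5 CPM with verapamil and 76.3, 72.8 and 71.9 CPM in control (0.10 ± 0.05 SE, adjusted p = 0.189). Psmd12 (0.13), Psmd7 (0.07), Psmd11 (0.07), Psmd8 (0.05) and Psmd3 (0.02) did not pass, with adjusted p from 0.0965 to 0.843. Psmd3 had 94.1, 89.1 and 91.8 CPM with verapamil and 86.3, 94.3 and 91.1 CPM in control, and its groups overlapped fully.

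Activators cap the core in place of the regulatory particle and need no ubiquitin. Psme1, which with Psme2 forms the interferon-inducible activator, rose, at 59.6, 57.6 and 58.0 CPM with verapamil and 45.6, 51.0 and 45.5 CPM in control (0.30 ± 0.06 SE, adjusted p = 0.00916), and stood at adjusted p = 0.0502 without verapamil replicate 1. Psme2 was at 80.5, 87.3 and 86.0 CPM with verapamil and 71.4, 81.3 and 67.5 CPM in control (0.21 ± 0.08 SE, adjusted p = 0.0720), and at adjusted p = 0.00347 without control replicate 2, which overlapped the verapamil range. Both genes lie on chromosome 14, 5912 bases apart. Psme3, the nuclear activator, was at 101, 99.8 and 102 CPM with verapamil and at 99.3, 104 and 104 CPM in control (-0.02 ± 0.05 SE, adjusted p = 0.741), and its change was 0.06 with library totals in place of TMM. Psme4, the large activator known for histone turnover, was at 135, 139 and 133 CPM with verapamil and 140, 118 and 144 CPM in control (0.01 ± 0.08 SE, adjusted p = 0.919), and its change turned to -0.08 with control replicate 2 left out and to -0.01 with verapamil replicate 2 left out. Psme2b, a copy of Psme2 on chromosome 11, had 5.31, 6.31 and 5.34 CPM with verapamil and 4.93, 2.08 and 4.87 CPM in control (0.50 ± 0.28 SE, adjusted p = 0.213), and its change was 0.20 without control replicate 2, its lowest library. How reads were shared between Psme2 and its copy is uncertain. The regulator Psmf1 was at 29.5, 29.0 and 29.7 CPM with verapamil and 23.7, 27.1 and 28.1 CPM in control (0.16 ± 0.08 SE, adjusted p = 0.141).

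Assembly chaperones, which help subunits into place and leave the finished particle, mostly did not pass. Of the 7, 1 rose (14.3%, against 15.4% of all tested genes). This was Psmd10, a chaperone of the base also called gankyrin, at 27.5, 29.2 and 28.2 CPM with verapamil and 24.5, 21.5 and 20.7 CPM in control (0.35 ± 0.08 SE, adjusted p = 0.0120). It was at adjusted p = 0.0595 without verapamil replicate 2. The other base chaperones, Psmd5 (0.14 ± 0.06 SE, adjusted p = 0.110) and Psmd9 (0.09 ± 0.07 SE, adjusted p = 0.356), did not pass. None of the 4 chaperones of the α ring passed, in edgeR or in any alternative run. Psmg1 averaged 12.8 ± 1.18 CPM with verapamil and 12.8 ± 1.35 CPM in control (SD, n = 3 each; a change of -0.0043 ± 0.11 SE, adjusted p = 0.981), and its change was above 0 with upper quartile factors (0.01), with library totals (0.08) and without verapamil replicate 2 (0.06) or control replicate 2 (0.07). Psmg2 (0.04 ± 0.10 SE), Psmg3 (0.09 ± 0.14 SE) and Psmg4 (0.19 ± 0.12 SE) had levels of 4.27 to 13.5 CPM over all libraries; the median SE of the change was 0.11 over the 4 chaperones and 0.06 over core genes. Psmg2 was at -0.05 without control replicate 1 and Psmg3 at -0.04 without control replicate 3. Psmc3ip, the match that is no proteasome part, was at 3.19, 3.56 and 3.19 CPM with verapamil and 3.15, 1.71 and 2.94 CPM in control (0.34 ± 0.22 SE, adjusted p = 0.279).

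Levels of different genes were compared per kb of transcript, using the principal GENCODE transcript of each gene, whose length need not be that of the transcript these cells make. The catalytic genes stood at 102 to 119 CPM per kb with verapamil and 81.9 to 92.8 CPM per kb in control. The inducible genes stood below them, Psmb8 at 34.0, Psmb10 at 27.9 and Psmb9 at 12.7 CPM per kb with verapamil, and at 28.2, 20.3 and 11.0 CPM per kb in control. The α ring chaperones were at 8.93 to 12.3 CPM per kb with verapamil and 8.07 to 12.3 CPM per kb in control. Psmb9 lay within their range in control (11.0) and just above it with verapamil (12.7). Within the α ring, whose subunits enter the particle in equal numbers, levels ran from 36.9 (Psma2) to 104 (Psma6) CPM per kb with verapamil and from 32.1 (Psma2) to 82.8 (Psma6) CPM per kb in control. Psma8 was at 4.29 CPM per kb with verapamil and 4.98 in control.

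**Figure D4:**
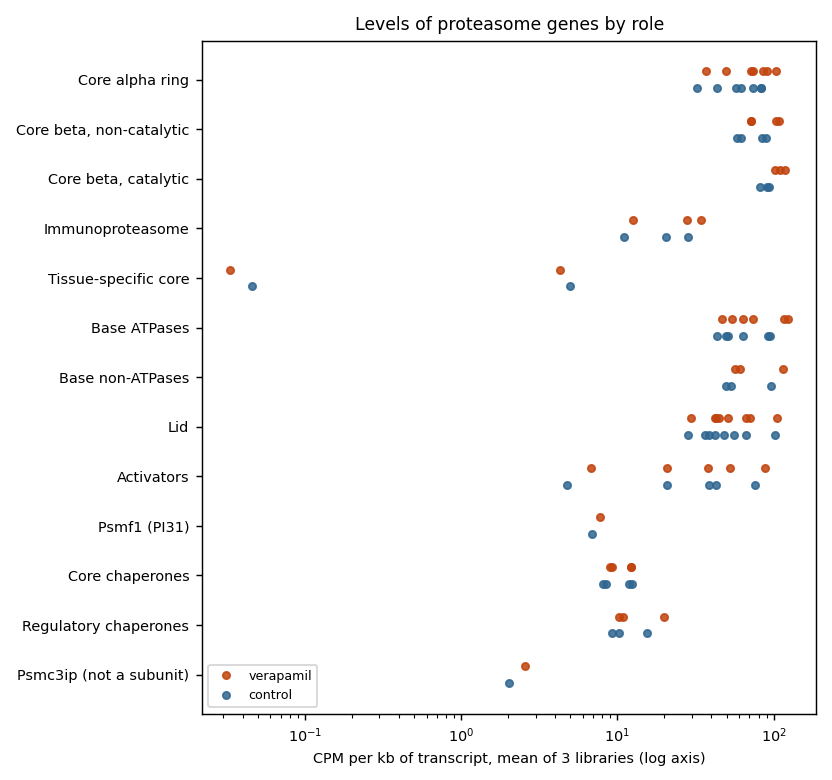
Mean level of each member by role in CPM per kb of transcript (log axis; n = 3 libraries a group), verapamil above control within each role. Catalytic core genes lie at 81.9 to 119 CPM per kb, the inducible genes at 11.0 to 34.0 and the α ring chaperones at 8.07 to 12.3.

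Proteasome genes outside the symbol rule were taken from a list of 24 names of associated subunits, chaperones, deubiquitinases and shuttle factors, of which 20 had a row (Psmd4 among them). Of these, 5 rose and 2 fell (25% and 10%, against 15.4% and 16.3% of all tested genes), with a median change of 0.05. Pomp, the maturation factor of the core, was at 81.3 ± 2.60 CPM with verapamil and 67.2 ± 1.82 CPM in control (SD, n = 3 each; 0.28 ± 0.05 SE, adjusted p = 0.00671) and passed without each library in turn. Uchl5, a deubiquitinase of the base, rose by 0.29, the lid subunit Sem1 by 0.18 and the unfoldase Vcp by 0.19, while the shuttle factors Rad23b and Ubqln4 changed by -0.25 and -0.24. Apart from Pomp, each of these lost the call in at least 2 of 6 repeats with a library left out (adjusted p up to 0.180), and the number that rose was 1 without verapamil replicate 1 or 2 or control replicate 1 and 2 without verapamil replicate 3. The number that fell was 0 without verapamil replicates 1 or 2, 1 without verapamil replicate 3 or control replicate 1, and 3 without control replicate 2. Of 6 ubiquitin and E1 genes, 0 passed in the main edgeR fit, 1 had an unadjusted p under 0.05 (5803 of the 13366 genes had one) and 1 passed by DESeq2. The nearest was Ubb, at 1403 ± 17.8 CPM with verapamil and 1197 ± 76.2 CPM in control (SD, n = 3 each; 0.23 ± 0.08 SE, adjusted p = 0.0501). With upper quartile factors, a filter of 5 CPM in 3 libraries or limma-voom, 1 of the 6 rose, and with library totals alone 2 rose. Without control replicate 2, 3 of the 6 rose.

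Genes known to regulate proteasome genes did not move one way. Of 17, 1 rose and 3 fell (5.88% and 17.6%, against 15.4% and 16.3% of all tested genes), with a median change of -0.01. Nfe2l1 fell to 269 ± 8.62 CPM in verapamil libraries, against 349 ± 35.3 CPM in control libraries (SD, n = 3 each; -0.37 ± 0.08 SE, adjusted p = 0.00955), and was at adjusted p = 0.0528 without verapamil replicate 1. Maff, a small partner of Nfe2l1, changed by -1.36 (adjusted p = 0.00756), and Syvn1, a ubiquitin ligase that holds Nfe2l1 low, by -0.35 (adjusted p = 0.0180, and up to 0.0763 with a library left out). Irf1, the interferon-induced factor of immunoproteasome genes, rose by 0.53 (adjusted p = 0.0102, and 0.0513 without control replicate 1). The count that fell was 1 without verapamil replicate 1 and 2 without verapamil replicate 2. Of 20 interferon response genes, 2 rose (Irf1 and Irf8, 0.65) and 1 fell (Socs1, -0.79), with a median of 0.23. These shares, 10% and 5%, stand against 15.4% and 16.3% of all tested genes. The change was above 0 in 18 of the 20, and in 6849 of all 13366 tested genes. The median SE was 0.22 over the 20 genes and 0.09 over all tested genes, so a change of the same size passed less readily in this list. Without control replicate 1, 1 rose, and without control replicate 2, 3 rose. Among the 17 regulators 0 rose without control replicate 1.

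MHC class I genes, which handle the peptides that the immunoproteasome makes, were set beside it. Of 14, 1 rose and 1 fell (7.14% each, against 15.4% and 16.3% of all tested genes), with a median of 0.01. The peptide trimmer Erap1 rose by 0.38 ± 0.07 SE (adjusted p = 0.00460), and the loading factor Pdia3 fell, with a change of -0.33 ± 0.09 SE (adjusted p = 0.0210), though not without verapamil replicates 1, 2 or 3 or control replicate 1. Without control replicate 2, 3 rose and 2 fell, and without control replicate 3, 2 fell. Tap1 and Tap2, the peptide transporters, were at changes of 0.02 ± 0.15 SE and 0.01 ± 0.09 SE (adjusted p = 0.942 and 0.937). The macrophage list differed between groups in the same libraries, as given above, with a median change of 0.55.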

How the data were processed

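RNA-seq libraries of osteoblasts with verapamil (3) and without it (3 controls) were analysed. The authors deposited 1 table of estimated counts for each gene in each library, unscaled by depth or length, in which 67.7% of values were not whole. GRCm38 (mm10) is the build per the submitters' processing notes. For aligner, counter, annotation and strandedness, the entry is: not given in the sources used here.

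Estimated counts were rounded. Genes were kept with filterByExpr (minimum count 10, minimum total 15), leaving 13366 of 17491. Libraries were scaled by TMM and compared with edgeR 4.0.16 in R 4.3.3 (robust quasi-likelihood fit, no covariates). Dividing the size of the log2 fold change by the root of F gave the SE. Pair ratios added 0.5 to each count. Alternatives used DESeq2 1.42.0, limma-voom (limma 3.58.1), other scaling, filters and thresholds, a replicate block and each library left out.

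On simulated counts for verapamil against control (13366 genes, 5 draws) the test recovered 12.4% of 1.25-fold and 61.6% of 1.5-fold changes, and 11.3% of its calls were false. The changed genes were a small part of all tested genes and were drawn from all of them. Coordinates and promoter windows are from RefSeq GRCm38.p6, transcript lengths from GENCODE. Members, lists and tests were chosen with earlier results of these data known. All members were to be named, with values per library for catalytic, inducible and activator genes and those of largest change. Related lists were to be given by counts, with up to 4 called members each. Other members shown per library were chosen after their values were seen.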

Additional observations from a re-analysis of the deposited data

How the results depend on the processing

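The number of members that rose, 25, was 25 with DESeq2 size factors, upper quartile factors, no low-count filter, a filter of 5 CPM in 3 libraries or limma-voom, 24 with the DESeq2 test, 31 with library totals alone and 28 at an adjusted p under 0.1. At an adjusted p under 0.01 it was 14, with 901 genes higher and 1064 lower over all genes. With a library left out it ran from 15 to 29, and 13 of the 25 passed in all 14 refits at 0.05. Over all genes, the number higher ran from 1008 to 2451 and the number lower from 1222 to 2589 with a library left out, against 2055 and 2179 with all. No member fell in any of these fits. Library totals alone made 63.7% of all calls higher, against 48.5%, and moved the median change of all genes by 0.08. Psme3 (-0.02) and Psmg1 (-0.0043) were above 0 under that scaling, Psmg1 also under upper quartile factors. The series speaks of 3 pairs without saying what a pair shares. Libraries of the same replicate number did not deviate together (correlations of deviations 0.01, -0.17 and -0.13 for numbers 1, 2 and 3). No verapamil library correlated best with the control of its own number. With 3 libraries a group, such correlations cannot show whether a number marks a shared culture or animal. With the replicate block, 16 members and 1364 genes in all rose; of the 25 members, 15 remained and 10 were lost, and Psmb8 was gained. The differences in pair ratios ran from -0.15 to 0.04 (Psmb8 over Psmb5), -0.21 to 0.06 (Psmb9 over Psmb6) and 0.12 to 0.26 (Psmb10 over Psmb7) with a library left out. The first 2 changed sign without control replicate 2 (0.0410 and 0.0557). The median member change, 0.20, was below both simulated sizes, of which the smaller was recovered in 12.4% of cases. That share does not give the rate for members. The simulation changed a far smaller part of the genes than the 31.7% that passed here, and drew them from all tested genes. Members had a median SE of 0.06, against 0.09 over all tested genes. A member not past the test may still differ.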
